A study of Mus musculus with 10 samples.

Results

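Caveolae are small flask-shaped pits of the plasma membrane, and fat cells and the endothelial cells of blood vessels are known for carrying them in large numbers. The caveolins insert into the inner face of the membrane, the cavins are soluble proteins that assemble into a coat over them, and Ehd2 and Pacsin2 act at the narrow neck, where they hold the pit at the surface and bend the membrane. In adipocytes, caveolae hold a large store of membrane that takes up stretch as the lipid droplet grows, and the insulin receptor and fatty acid uptake are linked to them. The genes described here are those of the 3 caveolins (Cav1, Cav2, Cav3), the 4 cavins (Cavin1 to Cavin4) and the neck proteins Ehd2 and Pacsin2, chosen by symbol: 9 of the 56748 genes in the table, of which 8 passed the filter on low counts and were among the 14270 genes tested.

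RNA-seq covered 5 libraries of control adipocytes, which carry floxed Fam20c alleles without Cre, and 5 libraries of Ad-Fam20c–KO adipocytes, which carry the same floxed alleles together with Adipoq-Cre. Fam20c encodes a secretory pathway kinase that phosphorylates secreted proteins. The cells were the stromal vascular fraction of inguinal fat of male mice aged 6 to 8 weeks, differentiated in culture for 6 to 8 days with insulin, dexamethasone, IBMX and rosiglitazone. Since the adiponectin promoter drives Cre, deletion is expected in differentiated adipocytes and not in the endothelial, stromal or immune cells that such a culture can hold. The sources used here do not say whether the libraries of a group came from separate mice or cultures, so p-values measure the spread between these libraries, which may be technical. The study's text gives fewer samples per group for this comparison than the 5 libraries in the table, without naming any as left out, and all 10 were used here. Total counts ranged from 18949106 to 26237825 (median 21253808) in control and from 19883101 to 23291792 (median 21686258) in KO libraries.

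The labels were first checked against Fam20c itself. Fam20c averaged 10.2 ± 1.29 CPM (counts scaled to library size) in control libraries and 7.30 ± 0.449 CPM in KO libraries (SD, n = 5), with every KO library below every control library. The log2 fold change was -0.49 (SE 0.0929, adjusted p = 0.0137; edgeR quasi-likelihood F test, Benjamini-Hochberg). Floxed exons are not told apart from the rest of the gene in these counts. The libraries carried high levels of adipocyte genes, led by Fabp4, a fatty acid carrier, and the 16 adipocyte markers summed to 50760 ± 532 CPM in control and 52505 ± 1035 CPM in KO libraries (SD, n = 5).

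2 libraries stood apart from the others of their groups before any test. On the first principal component, which held 23.5% of the variance, control 4 lay at 21.7 and KO 1 at 24.2, while the other 8 libraries lay between -14.8 and 8.59. Both are kept below, and values without them are given where they matter.

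The promoters of 4 members are shown because these genes moved together or in opposite directions from library to library, as described further on. Cav2 (chromosome 6, 17281185 to 17289115, plus strand) lies just ahead of Cav1 (chromosome 6, 17306335 to 17341452, plus strand), with 17219 bp between the end of one and the start of the other. Pacsin2 is on the minus strand of chromosome 15 (83375607 to 83464606) and Cavin1 on the minus strand of chromosome 11 (100956733 to 100970887), all by GENCODE M21 on GRCm38. The others are protein-coding genes elsewhere: Cavin2 on chromosome 1 (51289126 to 51302960, plus strand), Cavin4 on chromosome 4 (48663514 to 48673502, plus), Cav3 farther along chromosome 6 (112459505 to 112472872, plus), and Ehd2 (15946958 to 15967567, minus) and Cavin3 (105480083 to 105482300, minus) on chromosome 7. The sequences are the 250 bases before the first start site listed by RefSeq on GRCm38.p6, 5′ to 3′ on the strand of the gene, with capitals for matches to any of 6 motifs on either strand. For Cavin1 this window lies inside the GENCODE span, so by that annotation it falls after the start of the gene.
Cav2, chr6:17280935-17281184: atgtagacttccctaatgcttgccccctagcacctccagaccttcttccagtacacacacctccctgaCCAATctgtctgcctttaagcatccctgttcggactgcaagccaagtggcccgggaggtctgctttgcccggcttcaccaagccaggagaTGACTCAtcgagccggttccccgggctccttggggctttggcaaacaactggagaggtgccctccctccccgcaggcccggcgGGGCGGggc
Cav1, chr6:17306085-17306334: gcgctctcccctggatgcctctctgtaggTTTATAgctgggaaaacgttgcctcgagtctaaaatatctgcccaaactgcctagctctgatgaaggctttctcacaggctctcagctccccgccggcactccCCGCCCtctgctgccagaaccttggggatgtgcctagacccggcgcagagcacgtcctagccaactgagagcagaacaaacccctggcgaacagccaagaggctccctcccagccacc
Pacsin2, chr15:83464607-83464856: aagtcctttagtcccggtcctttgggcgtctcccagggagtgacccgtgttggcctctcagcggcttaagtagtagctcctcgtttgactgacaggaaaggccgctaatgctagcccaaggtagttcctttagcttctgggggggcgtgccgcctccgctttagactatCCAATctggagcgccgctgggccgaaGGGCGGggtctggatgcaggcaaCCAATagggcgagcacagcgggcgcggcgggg
Cavin1, chr11:100970618-100970867: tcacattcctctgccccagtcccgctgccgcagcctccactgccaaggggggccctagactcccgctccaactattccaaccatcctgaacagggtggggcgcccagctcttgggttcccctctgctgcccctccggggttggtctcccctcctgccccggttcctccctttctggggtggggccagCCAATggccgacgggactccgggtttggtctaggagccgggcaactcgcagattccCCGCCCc
Of 32851 RefSeq promoters over the same 250 bases, the TATA box TATAAA occurs in 12.4%, the CCAAT box in 33.8%, the GC box GGGCGG in 32.7%, the AP-1 site TGACTCA in 4.46%, the nuclear receptor motif AGGTCA in 14.0% and the E box CACGTG in 6.02%. GGGCGG was found in all 4 promoters shown, on the plus strand in Cav2 and Pacsin2 and on the minus strand in Cav1 and Cavin1. CCAAT was found in Cav2, Cavin1 and, at 2 places, in Pacsin2. TATAAA was found only in Cav1 among the 4, on the minus strand from base -221 to base -216, where it reads TTTATA in the sequence shown. TGACTCA was found only in Cav2 among the 4 promoters shown, from base -92 to base -86 before the start. RefSeq lists further starts for Cav1, Cavin1 and Pacsin2, which are not shown. Of these, start 2 of Pacsin2 has TGACTCA from base -152 to base -146. Its start 3 has AGGTCA from base -56 to base -51, on the minus strand. GGGCGG was found at the further start of Cavin1, and not at those of Cav1 or Pacsin2. Among the members not shown that have a listed promoter, GGGCGG was found in Ehd2 and not in Cav3, Cavin2 or Cavin4. A match is a description of the letters, and none of these windows was measured here. A promoter was listed for 8 of the 9 members.

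Levels were compared between genes per kilobase of exon. Cav1, the main structural caveolin outside striated muscle, stood highest at 448 CPM per kb averaged over the 10 libraries, in place 70 of 14096 genes ranked. Cavin2, which helps shape the pit, followed at 367 CPM per kb, and Cavin1, the coat protein without which caveolae do not form, at 238 CPM per kb. Ehd2 stood at 213, Cav2 at 113, Cavin3 at 78.1 and Pacsin2 at 23.0 CPM per kb. The muscle forms were near the floor, with Cavin4 at 0.439 and Cav3 at 0.0757 CPM per kb. Neighbours in this order did not overlap in range over the 10 libraries, except Cav1 and Cavin2, which kept the order in 8 of 10 libraries, Cavin1 and Ehd2, and Cavin4 and Cav3. With coding length in place of exon length, Cav2 moved up to the third place, ahead of Cavin1 and Ehd2.

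No caveolin, cavin or neck protein gene passed the test of KO against control adipocytes. By edgeR's quasi-likelihood F test, adjusted over all genes tested, 0 of the 8 members tested had an adjusted p under 0.05, and 0 had an unadjusted p under 0.05, where 2.17% of all genes tested were called and 11.9% had an unadjusted p under 0.05. DESeq2 called 0 of the 8 (3.39% of all genes), with 0 at an unadjusted p under 0.05 (11.3% of all genes). With a quality weight for each library, limma voom called 0 (3.21%), with 2 at an unadjusted p under 0.05 (15.1%). Without control 4, and without control 4 and KO 1 together, 2 of the 8 had an unadjusted p under 0.05 (16.0% and 15.6% of all genes) and 0 were called (3.07% and 3.47% of all genes). In none of the 9 members did the groups separate without overlap, as they did for 3.97% of genes tested. Of the 8, 4 were lower and 4 higher in KO libraries, with a median log2 fold change of -0.0001 against -0.00085 over all genes tested. For the 7 members of at least 100 CPM, the 95% intervals of the change lay between -15.5% and 11.4%.

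**Figure D1:**
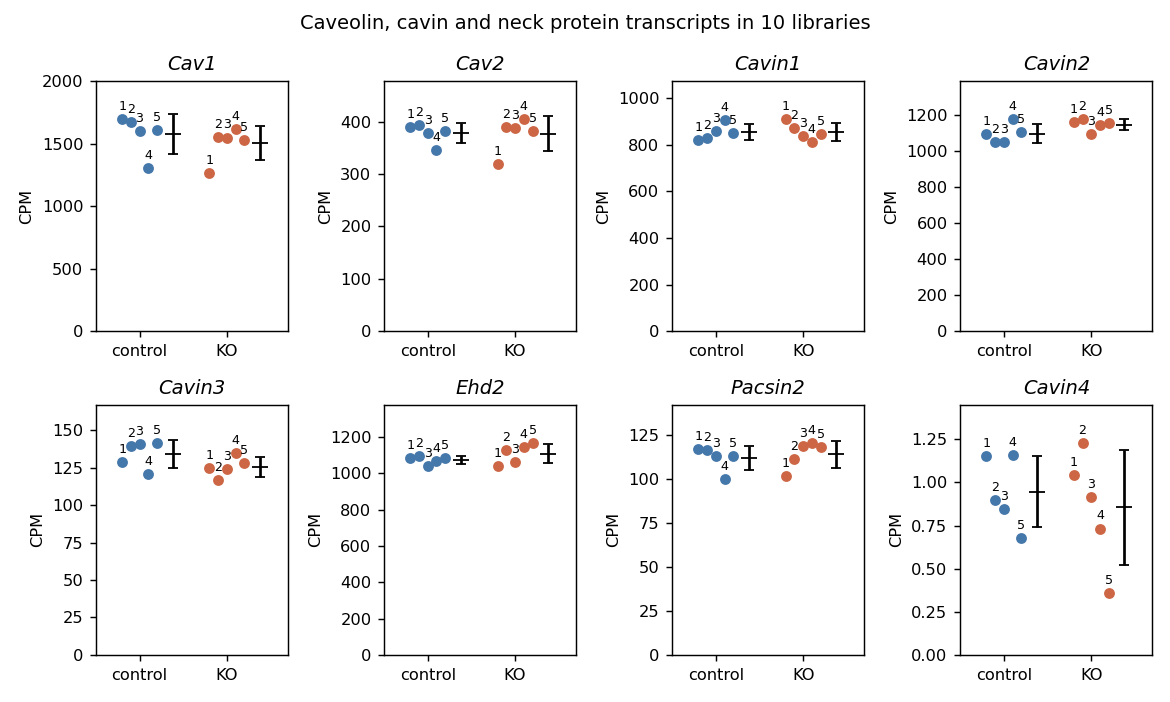
Expression (CPM, linear axes from 0) of 8 members in each library, numbered by replicate, with the mean and SD of each group (n = 5) as a black bar beside the points. The groups overlap in every panel, and control 4 and KO 1 hold the lowest Cav1, Cav2 and Pacsin2 values of their groups.

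The caveolins that build the pit overlapped between groups. Cav1 measured 1697, 1678, 1603, 1303 and 1613 CPM across controls 1 to 5, and 1268, 1556, 1550, 1617 and 1530 CPM across KO 1 to 5. Control 4 and KO 1 were low, and the other 8 libraries lay between 1530 and 1697 CPM. The means were 1579 ± 159 and 1504 ± 136 CPM (SD, n = 5), and the log2 fold change was -0.07 (SE 0.0797, 95% interval -0.24 to 0.10, adjusted p = 0.832, edgeR quasi-likelihood). Left out singly, those 2 libraries moved the Cav1 value to -0.13 (without control 4) and -0.01 (without KO 1), and it was -0.07 without both.

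Cav2, which joins Cav1 in mixed oligomers and depends on it to leave the Golgi, measured 390, 395, 379, 345 and 382 CPM across controls 1 to 5, and 320, 390, 389, 405 and 382 CPM across KO 1 to 5. The lowest values again belonged to control 4 and KO 1, and the groups overlapped. The log2 fold change was -0.00 (SE 0.0615, 95% interval -0.14 to 0.13, adjusted p = 0.993, edgeR quasi-likelihood). Cav3, the caveolin of striated muscle, was close to the floor. The libraries held 3, 2, 5, 0 and 2 counts in control and 1, 2, 1, 2 and 1 in KO, 19 in all, and it was not tested in the main comparison. A count of 3, the floor used here, is worth 0.112 to 0.157 CPM in these libraries, and this covers counting error only.

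Among the cavins, Cavin1 measured 823, 828, 860, 908 and 850 CPM across controls 1 to 5, and 910, 872, 839, 810 and 848 CPM across KO 1 to 5. Here control 4 and KO 1 were the highest libraries of their groups, the reverse of Cav1. The means were 854 ± 33.9 and 856 ± 37.5 CPM (SD, n = 5), and the log2 difference was 0.00 (SE 0.0434, 95% interval -0.09 to 0.10, adjusted p = 0.989, edgeR quasi-likelihood).

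Cavin2 measured 1096, 1054, 1053, 1178 and 1108 CPM across controls 1 to 5, and 1164, 1177, 1094, 1148 and 1154 CPM across KO 1 to 5. In 4 of 5 KO libraries the value lay above the control median, but control 4 exceeded every KO library. The log2 fold change was 0.06 (SE 0.0423, 95% interval -0.03 to 0.16, adjusted p = 0.631, edgeR quasi-likelihood).

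Cavin3, a cavin that links the coat to signalling proteins, measured 129, 139, 141, 120 and 142 CPM across controls 1 to 5, and 125, 117, 124, 135 and 128 CPM across KO 1 to 5. Every KO library lay below the control median of 139 CPM, and the groups overlapped through control 4 and control 1. With a log2 fold change of -0.10 (SE 0.0539, 95% interval -0.21 to 0.02, adjusted p = 0.545, edgeR quasi-likelihood), it came nearest to the limit among the members. An exon of Cavin3 overlaps Gm45667 on the opposite strand, and since the strand setting of the counting is not given in the sources used here, reads of the 2 genes cannot be told apart. Cavin4, the muscle cavin, rested on 7 to 28 counts a library, and its interval was wide (log2 fold change -0.12, 95% interval -0.72 to 0.48).

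The neck proteins also overlapped between groups. Ehd2, an ATPase that holds caveolae at the cell surface, measured 1084, 1098, 1042, 1069 and 1087 CPM across controls 1 to 5, and 1041, 1127, 1064, 1145 and 1168 CPM across KO 1 to 5. Although 3 KO libraries exceeded every control library, KO 1 lay below every control library, and the log2 fold change was 0.04 (SE 0.0419, adjusted p = 0.787, edgeR quasi-likelihood). Pacsin2, which senses and bends membrane, measured 117, 117, 113, 100.3 and 113 CPM across controls 1 to 5, and 102, 111, 119, 121 and 118 CPM across KO 1 to 5. Control 4 and KO 1 were the low libraries of Pacsin2 as well, and the log2 fold change was 0.03 (SE 0.0567, adjusted p = 0.927, edgeR quasi-likelihood).

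The balance between members was compared through 5 ratios of CPM, by 2-sided exact permutation tests over the 10 libraries with Benjamini-Hochberg adjustment over the 5. The smallest p that 5 libraries against 5 allow is 0.00794. None of the 5 ratios passed. The Cav2 to Cav1 ratio was 0.241 ± 0.0138 in control and 0.251 ± 0.000982 in KO libraries (SD, n = 5; exact permutation p = 0.0952, adjusted p = 0.238). The KO libraries all lay between 0.250 and 0.252, including KO 1, where both genes were low. Control libraries 1, 2, 3 and 5 lay below them, from 0.230 to 0.237, and control 4 above them at 0.265. Without control 4 this ratio passed the limit, with a log2 difference of 0.10 (exact permutation test, adjusted p = 0.0397), as did the Ehd2 to Cav1 ratio at 0.18 (exact permutation test, adjusted p = 0.0397). Without both control 4 and KO 1 neither passed: the log2 differences were 0.09 and 0.14, each with an adjusted exact permutation p of 0.0714 and an unadjusted p of 0.0286, the smallest that 4 libraries against 4 allow. With all libraries, Ehd2 to Cav1 was 0.687 ± 0.0753 in control and 0.741 ± 0.0534 in KO libraries (exact permutation p = 0.198, adjusted p = 0.317). Cavin2 to Cavin1 was 1.29 ± 0.0404 and 1.34 ± 0.0533 (exact permutation p = 0.0952, adjusted p = 0.238). Cavin1 to Cav1 and Cavin3 to Cavin1 had adjusted exact permutation p values of 0.508 and 0.317.

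Some pairs of members varied together within groups. After the mean of its group was taken from each library, Cav1 and Cav2 rose and fell together (Pearson r = 0.94 over 10 libraries, 0.93 over the 8 left without control 4 and KO 1). Cav1 and Cavin1 ran in opposite directions (r = -0.91, and -0.82 over the 8), and so did Cavin1 and Pacsin2 (r = -0.96, and -0.91 over the 8). The relation of Cav1 with Pacsin2 was 0.95 over all 10 and 0.55 without the 2 libraries, and that of Cav1 with Cavin2 went from -0.63 to 0.06. Of all 28 pairs, 21 had an r between -0.5 and 0.5 without the 2 libraries. These correlations describe 10 libraries, whose values share a library size and a preparation, and no test was made of them.

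**Figure D2:**
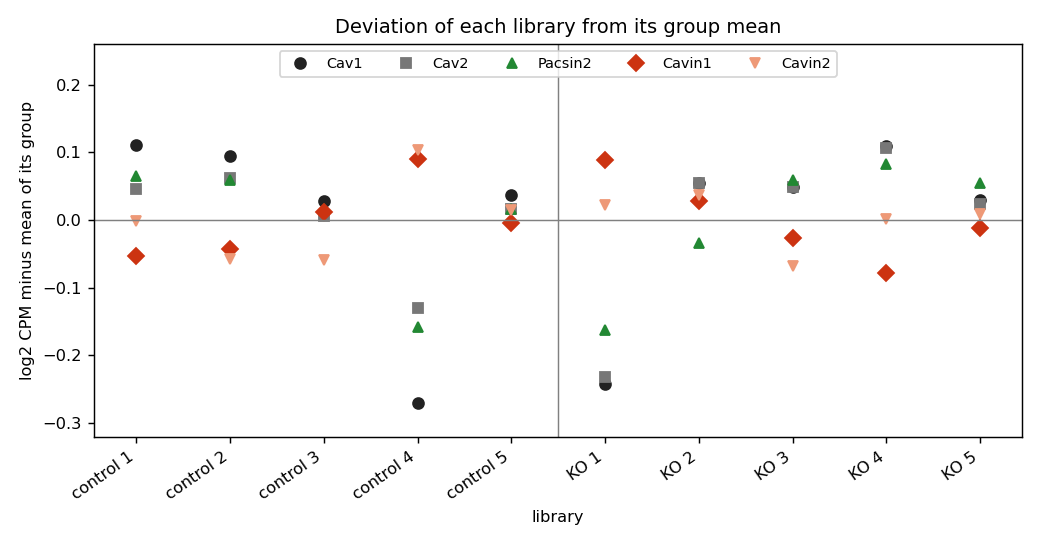
Log2 CPM of 5 members in each library minus the mean of its group, so that 0 is the group mean. In control 4 and KO 1, Cav1, Cav2 and Pacsin2 lie below 0 and Cavin1 above it.

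The genes most like Cav1 across libraries, out of 9303 genes whose mean log2 CPM was 3 or more, were Hyou1 and Pdia4, which help proteins fold in the endoplasmic reticulum, Mlec, a sugar-binding protein there, Vcp, an ATPase that draws misfolded proteins out of it, and Hibch, a mitochondrial enzyme of valine breakdown. Their group-centred r with Cav1 was 0.98 to 0.99 over 10 libraries. Hyou1 stood at 303 CPM in control 4 and 278 CPM in KO 1, against 368 to 439 CPM in the other 8 libraries, so it was low where Cav1 was low. Without those 2 libraries r was 0.83 for Hyou1, 0.79 for Mlec, 0.88 for Hibch, 0.75 for Pdia4 and 0.98 for Vcp. For Cavin1 the nearest genes were Lpin3, Nab2, Gnb5, H2-Ab1 and Slc6a8, with r from 0.97 to 0.99, and from 0.89 to 0.96 without the 2 libraries. None of these 10 genes passed the test of KO against control.

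Other genes of caveolae and membrane rafts were read from 3 lists of 22 genes, 21 of them tested. Of the neck and scission genes, 0 of 7 tested passed and 2 had an unadjusted p under 0.05, with log2 fold changes from -0.37 to 0.40 and a median of 0.01. Dnm2, the dynamin that cuts pits from the membrane, averaged 142 ± 8.47 CPM among controls and 147 ± 6.64 CPM among KO libraries. Of the raft scaffolds, 0 of 5 passed and 0 had an unadjusted p under 0.05, with a median of 0.04. Flot1 and Flot2, which build flat rafts, had log2 fold changes of 0.03 and 0.04. Among 9 proteins held in or signalling from caveolae, 1 fell and 0 rose, with a median of -0.03, against 1.86% of all genes called lower and 0.308% called higher. An unadjusted p under 0.05 was found for 4 of these 9, against 11.9% of all genes.

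Of those 9, the adipocyte genes did not pass. Insr, the insulin receptor, averaged 153 ± 21.9 CPM among controls and 159 ± 23.2 CPM among KO libraries (SD, n = 5). Cd36, the fatty acid transporter, had 4613 ± 258 and 4751 ± 183 CPM. Slc2a4, the insulin-responsive glucose transporter, had 294 ± 16.6 and 315 ± 11.2 CPM, a log2 fold change of 0.10 (SE 0.045, adjusted p = 0.404, edgeR quasi-likelihood).

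**Figure D3:**
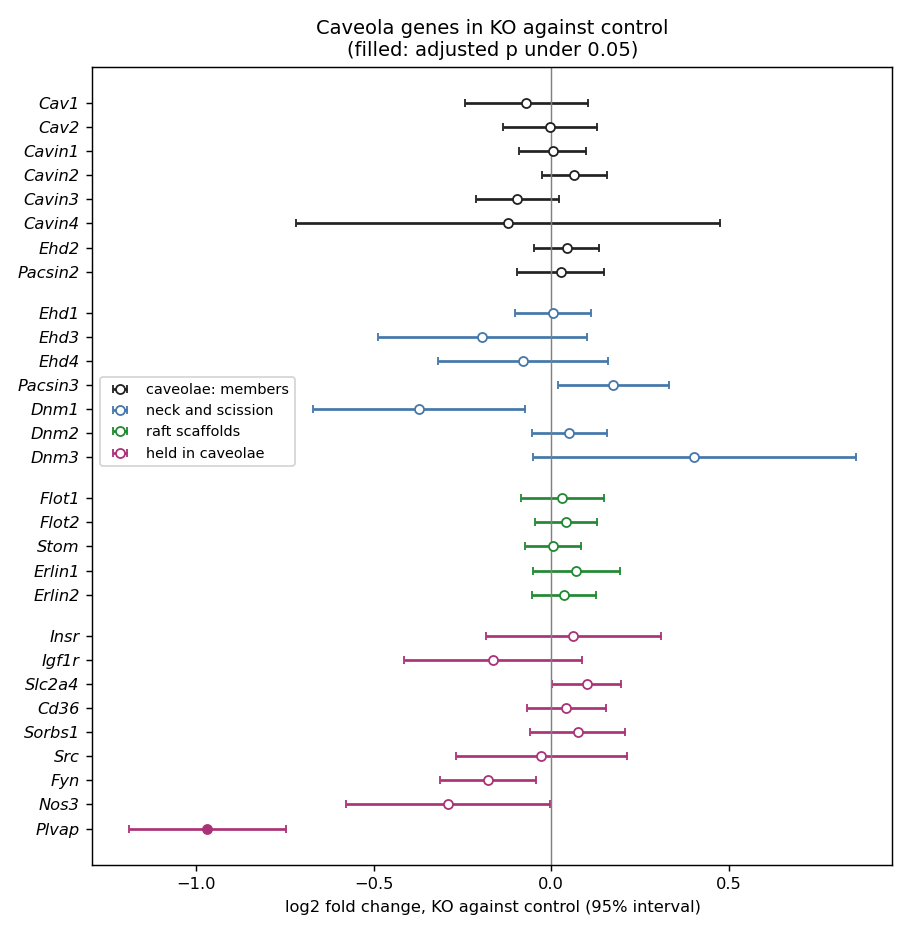
Log2 fold change, KO against control, of the 8 members tested and of 21 other caveola and raft genes, with 95% intervals from edgeR's quasi-likelihood fit. Plvap, the only filled symbol, is the only gene with an adjusted p under 0.05.

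The gene that fell was Plvap, the protein of the thin diaphragms across the necks of endothelial caveolae. It measured 9.54, 8.44, 11.6, 9.72 and 10.7 CPM across controls 1 to 5, and 5.56, 4.39, 5.54, 4.95 and 5.09 CPM across KO 1 to 5. Every KO library lay below every control library, control 4 and KO 1 included. The log2 fold change was -0.97 (SE 0.102, adjusted p = 0.00026, edgeR quasi-likelihood). Relative to Cav1, Plvap was 0.00640 ± 0.00105 in control and 0.00343 ± 0.000601 in KO libraries (SD, n = 5). Nos3, the endothelial nitric oxide synthase that Cav1 binds, was 0.00340 ± 0.000338 and 0.00296 ± 0.000609 relative to Cav1, with overlapping groups, and did not pass on its own (log2 fold change -0.29, SE 0.132, adjusted p = 0.409, edgeR quasi-likelihood). Cavin2 was 0.704 ± 0.114 and 0.769 ± 0.0869 relative to Cav1, also with overlapping groups. These 3 ratios were chosen after the values were seen, so they are given as a description, with no test, and Nos3 was likewise chosen to be named after its values were seen.

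Plvap is also 1 of 28 markers of blood endothelium. All 28 had a lower fitted value in KO libraries and 22 passed the test, with a median log2 fold change of -1.10, against 1.86% of all genes called lower. The list was chosen with earlier results of these data known. S1pr1, a lipid receptor of vessel walls, fell by 1.05 on the log2 scale and Cdh5, the cadherin of endothelial junctions, by 1.27, while Apln, the most abundant of the list over all 10 libraries (47.4 CPM in control and 39.0 CPM in KO libraries, against 53.1 and 22.1 CPM for Cdh5), had a log2 fold change of -0.28 and did not pass (adjusted p = 0.808, edgeR quasi-likelihood). The 28 summed to 349, 355, 418, 464 and 418 CPM across controls 1 to 5, and to 279, 204, 208, 182 and 196 CPM across KO 1 to 5, so the groups did not overlap. Control 4 and KO 1, the libraries with the least Cav1, had the highest endothelial sums of their groups. Single markers were less uniform. Pecam1 was highest among controls in control 4 (46.0 CPM), but Cdh5 was 57.9 CPM there against 58.4 CPM in control 5. Plvap in control 4 lay below controls 3 and 5, and Nos3 was lowest among controls there, at 4.55 CPM. In KO 1, Pecam1, Cdh5 and Plvap were the highest of the KO libraries, and Nos3 was not. In bulk RNA, fewer endothelial cells and less endothelial RNA per cell cannot be told apart, and the part of endothelial cells in the level of the caveolins and cavins was not tested.

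**Figure D4:**
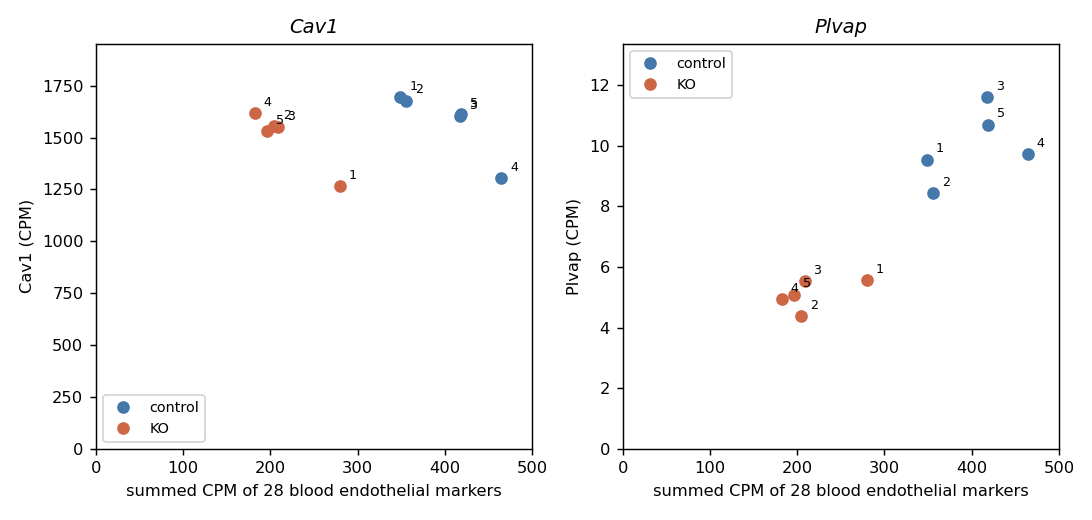
Cav1 (left) and Plvap (right) in CPM against the summed CPM of 28 blood endothelial markers, which include Plvap, in each library, numbered by replicate. The KO libraries have lower sums than all control libraries, with lower Plvap and overlapping Cav1.

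With the mean level of the endothelial markers as a covariate, itself different between the groups, the log2 fold changes moved to -0.82 for Cav1 (adjusted p = 0.137), -0.61 for Cav2 (adjusted p = 0.135) and 0.34 for Cavin1 (adjusted p = 0.241), by the edgeR quasi-likelihood fit, and 0 of the 8 members were called. That fit called 0 of all 14270 genes, so the count of 0 is not particular to the members. An unadjusted p under 0.05 was found for 4 of the 8 members and for 14.4% of all genes.

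Markers of other cell types gave the remaining background. Over all genes tested, 1.86% were called lower, 0.308% were called higher, and 11.9% had an unadjusted p under 0.05. Of 12 progenitor and fibroblast markers 6 fell, among them Lum, Cd34, Pdgfra and Col3a1, with a sum of 8442 ± 702 CPM in control and 6803 ± 540 CPM in KO libraries, and Col3a1 was the most abundant. Of 6 lymphatic markers tested 2 fell, Flt4 and Mmrn1, while Pdpn was the most abundant and had a log2 fold change of 0.05. Of the 6, 5 had a lower fitted value in KO libraries and 4 had an unadjusted p under 0.05. The 7 lymphatic markers listed summed to 75.3 ± 7.95 CPM in control and 69.0 ± 9.12 CPM in KO libraries, with overlapping groups. Of 10 pericyte and smooth muscle markers 0 passed (median log2 fold change -0.24), while 9 had a lower fitted value in KO libraries and 5 had an unadjusted p under 0.05, and Pdgfrb led them. Of 12 macrophage markers 0 passed and 0 had an unadjusted p under 0.05, and Lyz2 led a sum of 1747 ± 337 CPM in control and 1781 ± 413 CPM in KO libraries. Of the 16 adipocyte markers 0 passed, with a median of 0.05. Of these, 12 had a higher fitted value in KO libraries and 6 had an unadjusted p under 0.05, and their sums did not overlap, at 50117.5 to 51366 CPM in control and 51404 to 53449.9 CPM in KO libraries. The 13 skeletal muscle markers, listed because Cav3 and Cavin4 are muscle genes, summed to 15.0 ± 3.01 and 14.4 ± 3.54 CPM, with Acta1 the most abundant, and 0 of the 5 tested passed or had an unadjusted p under 0.05. The 6 epithelial markers, led by Cdh1 over all 10 libraries and by Krt18 in the KO libraries, summed to 0.144 and 0.211 CPM, and none was high enough to test. The part of these other cells in the members' levels was not tested.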

How the data were processed

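The authors prepared SMARTer and Nextera XT libraries, mapped paired-end reads with STAR to mouse GRCm38 (mm10 per the labels), counted fragments per gene with featureCounts on an Ensembl annotation, and deposited raw counts of 56748 genes without normalization or pooling; the strand setting is not given in the sources used here. Every row named a gene, and 0 columns were of other samples.

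The unpaired comparison of KO with control used edgeR 4.0.16 (R 4.3.3): filterByExpr at a minimum count of 10 left 14270 genes, which were scaled by TMM and tested by quasi-likelihood, with Benjamini-Hochberg adjustment over all of them and a limit of 0.05. SE is the size of the log2 difference over the square root of F. The biological coefficient of variation was 9.35%. Libraries of a group differed by more than sampling noise (chi-square per degree of freedom at least 3.50). Exact permutation tests used all 252 assignments of 5 libraries against 5, and fewer assignments where libraries were left out. Library groups were taken from the labels. The members and gene lists were chosen with earlier results of these data known. Genes named are the members, Fam20c, caveola list genes past the limit and 6 more of those lists, Nos3 (chosen after its values were seen), the 5 genes most like Cav1 and Cavin1, and per marker list the most abundant and at most 4 called genes. Positions are those of GENCODE M21, which places 52073 genes, and promoters are from RefSeq. Alternatives were DESeq2 1.42.0, limma 3.58.1 voom with quality weights, other size factors and filters, a replicate block, an endothelial covariate and each library left out. Leaving out control 4 and KO 1 together was chosen after seeing the data. Scripts were tested on simulated data.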

Additional observations from a re-analysis of the deposited data

Results flagged for a closer look

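In groups of 5 libraries, a lowest or highest value was set apart when its gap to the nearest library was more than 0.71 of the group's range. Of 52 groups compared 10 were, where chance gives about 2.6; the ratios share genes, so these are not independent.

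Control 4 and KO 1 account for 9 of the 10. Cav1 was 1303 CPM in control 4, against 1603 to 1697 CPM in the other controls, and 1268 CPM in KO 1, against 1530 to 1617 CPM in the other KO libraries. Cav2 was 320 CPM in KO 1, against 382 to 405 CPM. Pacsin2 was 100.3 CPM in control 4, against 113 to 117 CPM. Control 4 also had the highest ratios of Cav2 to Cav1 (0.265), Cavin1 to Cav1 (0.697) and Ehd2 to Cav1 (0.820) among the controls, and KO 1 the highest ratio of Cavin1 to Cav1 (0.718) among the KO libraries. The summed blood endothelial markers reached 279 CPM in KO 1, against 182 to 208 CPM in the other KO libraries. The remaining value was the sum of pericyte and smooth muscle markers in KO 3, 218 CPM against 268 to 271 CPM.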

How the results depend on the processing

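No member was called under any of the 19 alternatives run, with lowest adjusted p values from 0.135 (endothelial covariate) to 0.787 (without control 3). Of 151 pairs of a member and an alternative, 138 kept the sign and 13 reversed. With libraries left out or other scaling the reversed values were small: Cav2 (-0.033 to 0.052), Cavin1 (-0.016 to 0.030), Pacsin2 (-0.0075 to 0.068), Cavin4 (-0.29 to 0.062) and the Cavin1 to Cav1 ratio (-0.010 to 0.16) as each library was left out, Cav2 without both control 4 and KO 1 (0.020), and Cavin1 with library totals only (-0.018). The other members kept their sign as each library was left out, with ranges of -0.13 to -0.012 for Cav1, 0.050 to 0.093 for Cavin2, -0.13 to -0.064 for Cavin3 and 0.024 to 0.068 for Ehd2. With the endothelial covariate 3 members reversed by larger amounts: Cavin4 from -0.12 to 0.58, Ehd2 from 0.04 to -0.24 and Pacsin2 from 0.03 to -0.47. Leaving out single libraries gave log2 differences of 0.045 to 0.096 for Cav2 to Cav1 and 0.073 to 0.18 for Ehd2 to Cav1, highest without control 4. Over all genes, 265 were called lower and 44 higher; leaving out single libraries gave 164 to 323 and 19 to 119. The counts were 359 and 125 with DESeq2, and 347 and 111 with voom and quality weights together. They were 353 and 145 without both control 4 and KO 1, and both counts were 0 with the endothelial covariate. The causes were not tested. The sources used here do not say whether replicate numbers pair the samples. Of 5 same-number pairs 1 correlated over 0.1 (range -0.25 to 0.26), which is too few to settle it. With the number as a block, 193 genes were lower and 21 higher, 0 members were called, and Cav1 was -0.07. Depth limits Cav3 and Cavin4, which rest on few counts.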
